A study of Homo sapiens with 18 samples.

Results

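The comparison described here is that of HeyA8 cells, a human ovarian cancer line, transfected with the short RNA sCAG against HeyA8 cells transfected with the short RNA sNT8. The libraries were chosen by the cell line and treatment in their labels and by the columns of the deposited table that holds both groups, which gave 6 of the 18 libraries of the series: sCAG A, B and C and sNT8 A, B and C. Both groups carried the label wt for genotype, and both received 10 nM of short RNA with the reagent RNAiMax in 6-well plates for 48 h before total RNA was taken. The other 12 libraries are HeyA8 cells given sG5C and PC3 cells, a human prostate cancer line, given sCAG, sG5C or sNT8, with 3 libraries in each group, and they enter only where a difference from them was tested. Every group thus held a transfected short RNA, and cells without one were not analysed here. The labels give the names of the short RNAs but not their sequences, and they do not say that the lettered libraries came from separate cultures, so the p-values measure the spread between these libraries, which may be technical.

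The series is about DISE, death induced by survival gene elimination, in which short RNAs carried by Argonaute proteins silence transcripts that cells need. An Argonaute protein holds a short guide RNA and binds transcripts that pair with it; pairing along the guide lets AGO2 cut the transcript, and pairing of the seed at the guide's 5′ end leads to deadenylation and decay. A run of CAG units is complementary to a run of CTG units, which in a transcript reads as CUG. In cycling cells, E2F factors control the genes for DNA synthesis, and the MuvB complex with MYBL2 and FOXM1 controls the genes for mitosis, in part through a promoter element called the cell cycle homology region. The p53 protein induces CDKN1A, an inhibitor of cyclin-dependent kinases, and its own antagonist MDM2.

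The 6 libraries held 34761435 to 39189838 reads on annotated genes, and the number of genes with a read lay between 31659 and 32690. PAX8, a transcription factor of ovarian and fallopian tube epithelium, lay between 13234 and 15491 normalized counts in the sCAG libraries and between 11776 and 12843 in the sNT8 libraries. KRT8, a keratin of simple epithelia, and VIM, the filament protein of mesenchymal cells, were both abundant, while CDH1, the epithelial cadherin, had at most 3.29 normalized counts in a sCAG library and 0 in each sNT8 library. FOLR1 and MUC16, further markers of ovarian carcinoma, stayed under 11 normalized counts, EPCAM at or below 36.6, and SOX17 and ESR1 at or below 77.3. WT1 lay between 143.8 and 262.7 and MSLN between 310.9 and 920.3 over the 6 libraries. PAX8, KRT7, KRT8 and KRT18 were thus as the label would have it, and the low markers were not. KRT19, a keratin of the epithelial list, had at most 11.9 normalized counts. Of 8 prostate markers, KLK3 and FOLH1 were at 0 in all 6 libraries, and the summed level of the 8 was 650 to 714 in the sCAG libraries and 834 to 870 in the sNT8 libraries. Of 14 leukocyte markers, 12 averaged under 10 normalized counts, and CD3D and CD3E were at 0 in all 6. The endothelial markers TIE1 and ENG were abundant in both groups, while CLDN5, TEK and VWF were low. CDH5, the endothelial cadherin, lay between 377.7 and 485.4 normalized counts in the sCAG libraries and between 2323 and 2605 in the sNT8 libraries. Its log2 fold change of -2.46 was the lowest of the endothelial list. EGFL7 lay between 853.3 and 967.3 in the sCAG libraries and between 1299.6 and 1456 in the sNT8 libraries. The 10 fibroblast markers summed to 14007 to 14534 normalized counts in the sCAG libraries and 10587 to 12076 in the sNT8 libraries; PDPN, COL1A1, FAP and ACTA2 were abundant, 4 averaged under 10, and DCN, LUM and COL3A1 were at or near 0. In bulk RNA, fewer cells in a given state and less RNA per cell cannot be told apart.

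Most genes differed between sCAG and sNT8 libraries. Of 21897 genes tested, 13027 (59.5%) passed an adjusted p under 0.05 in limma's test on log2(normalized count + 1), and these are called below. They divided into 6425 genes higher with sCAG (29.3%) and 6602 lower (30.2%), with a median log2 fold change over all genes tested of 0.01. Among the 13422 protein-coding genes tested, 72.4% were called, 34% higher and 38.3% lower, with a median of -0.03. When values were scaled to library totals in place of the authors' size factors, the median of all genes was -0.11, with 5082 genes higher and 7911 lower, so that 39.1% of the calls were higher, against 49.3% with the size factors. The normalized counts of the 3 sCAG libraries all lay on one side of the 3 sNT8 libraries in 64% of the genes (31.7% above, 32.3% below). The largest changes were mostly falls. At least 2-fold changes were called for 1749 genes higher (7.99%) and 2296 lower (10.5%), at least 4-fold changes for 334 higher (1.53%) and 702 lower (3.21%), and at least 16-fold changes for 33 higher (0.151%) and 167 lower (0.763%). Since over 1 in 2 genes was called, the counts of list members below are read beside these shares. Many list members named below were chosen for the smallest p in their list. Groups that do not overlap largely follow from that choice, and where stated for them are description only.

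A few transcripts took a larger part of the reads after sCAG. FN1, the gene for fibronectin, a glycoprotein of the extracellular matrix, took 2.49%, 2.47% and 2.69% of all reads in the sCAG libraries, against 1.00%, 0.905% and 0.943% in the sNT8 libraries. MALAT1, an abundant nuclear long non-coding RNA, took 3.48%, 3.49% and 3.44% in the sCAG libraries, against 1.09%, 1.23% and 1.24% in the sNT8 libraries. NEAT1, the RNA around which nuclear paraspeckles form, averaged 0.531 ± 0.035% in the sCAG libraries and 0.161 ± 0.010% in the sNT8 libraries (SD, n = 3 each). For each of these genes every sCAG library lay above every sNT8 library. Long non-coding RNAs as a class took 5.26 ± 0.014% of reads in the sCAG libraries and 2.60 ± 0.14% in the sNT8 libraries, whereas without MALAT1 and NEAT1 they took 1.256 ± 0.018% and 1.257 ± 0.048%, and the libraries overlapped. The 10 most abundant genes (ACTB, AHNAK, EEF1A1, FN1, GAPDH, HMGA1, MALAT1, NEAT1, PABPC1 and RN7SL2) together took 10.11 ± 0.086% in the sCAG libraries and 5.98 ± 0.037% in the sNT8 libraries. They were ranked by mean share over these same 6 libraries, so a high level with sCAG could bring a gene in. They include FN1, MALAT1 and NEAT1, described above. Their joint difference, sCAG minus sNT8, was 4.129 percentage points, beside 2.287 for MALAT1, 1.602 for FN1 and 0.370 for NEAT1 alone. RN7SL2 was lower with sCAG, at 0.639 ± 0.024% against 0.907 ± 0.056%. Protein-coding genes took 90.4 ± 0.098% in the sCAG libraries and 92.9 ± 0.19% in the sNT8 libraries. The 154 genes of 7 lists of mitosis and DNA replication took 0.2473 ± 0.0018% in the sCAG libraries and 1.346 ± 0.030% in the sNT8 libraries. In an exact two-sided permutation test over libraries each of these shares had p = 0.10, the smallest that 3 against 3 libraries allow, except the long non-coding RNAs without MALAT1 and NEAT1 (p = 1.00).

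**Figure D1:**
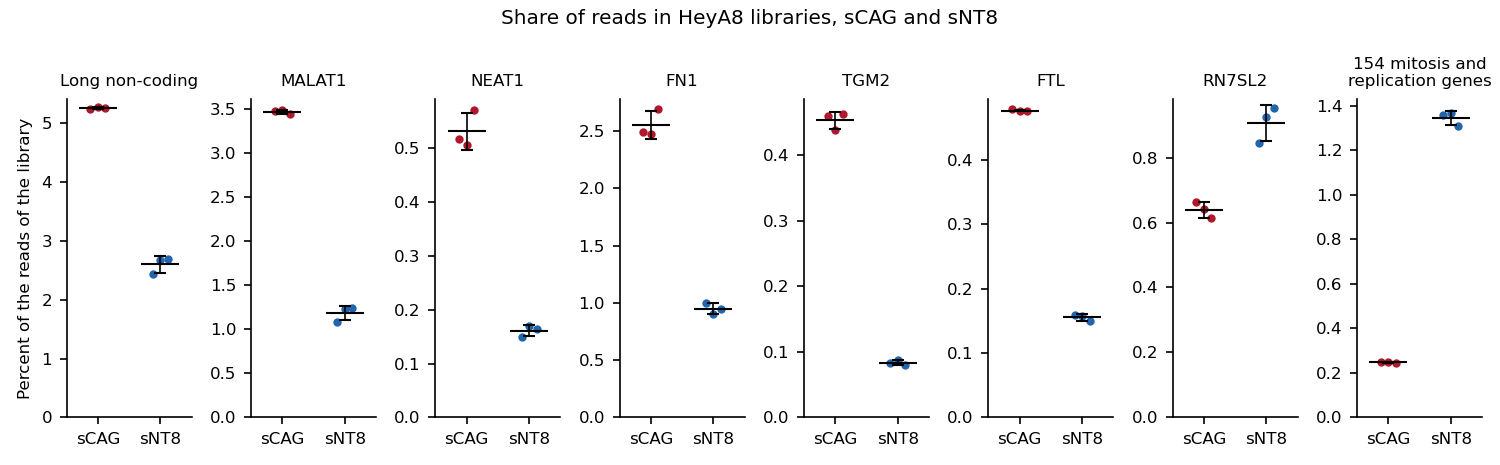
Percent of all reads (vertical axes) taken by each gene or class in each library, with sCAG libraries to the left of sNT8 libraries; points are libraries, horizontal marks are means and error bars are SD (n = 3). FN1 at 2.55% and MALAT1 at 3.47% in the sCAG libraries lie above 0.949% and 1.18% in the sNT8 libraries, and the mitosis and replication lists at 0.247% lie below 1.35%.

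Transcripts with long CTG runs were mostly lower with sCAG. The longest run of uninterrupted CTG units was taken from the GENCODE 29 basic transcripts of each gene, which had an entry for 13379 of the protein-coding genes tested. Runs of at least 6 units (18 bases) were present in 132 genes, of which 87 were tested and 80 were protein-coding. Of these 80, 57 were lower, 11 were higher and 12 were not called, with a median log2 fold change of -1.22, against -0.03 over all 13379 genes. With 4 to 5 units, 198 of 355 genes were lower and 76 higher (median -0.33), and with fewer than 4 units, 4884 of 12944 were lower and 4470 higher (median -0.02). By exact length, the median was -0.05 at 3 units, -0.30 at 4, -0.82 at 5 and -1.24 at 6, the last over 44 genes with 33 lower. Above 6 units the bins were small and the medians did not form an even series, with -0.25 over 17 genes at 7 units and -1.74 over 9 genes at 8. These lengths are those of the reference genome, and the runs that HeyA8 itself carries were not measured.

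**Figure D2:**
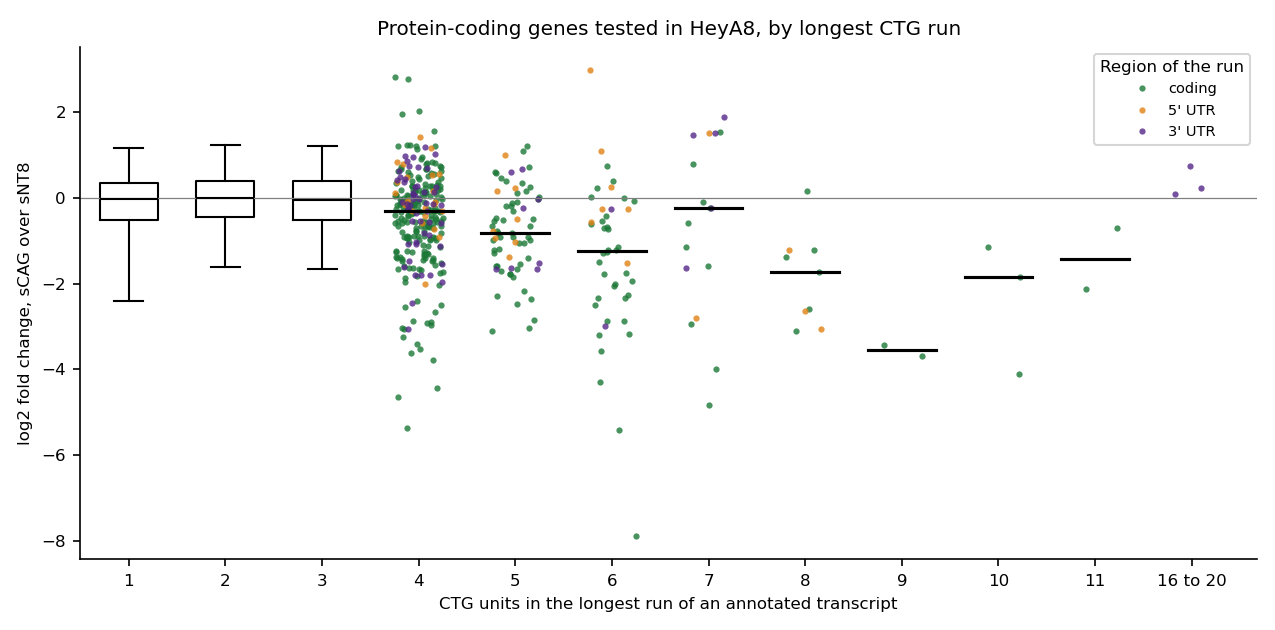
Log2 fold change, sCAG over sNT8 (vertical axis), of protein-coding genes by the longest run of CTG units in their annotated transcripts (horizontal axis); from 4 units on, points are genes, coloured by the region of the run, and horizontal marks are medians, while boxes for 1 to 3 units show the quartiles with whiskers from the 5th to the 95th percentile. The median is -0.05 at 3 units and -1.24 at 6 units.

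The share of genes called lower varied with the position of the run, and the difference between positions was not tested. Among genes with at least 6 units, 46 of 58 with the run in coding sequence were lower and 3 higher (median -1.55). With the run in a 5′ UTR, 8 of 12 were lower and 3 higher (median -0.41), and with the run in a 3′ UTR, 3 of 10 were lower and 5 higher (median 0.15), the last including SIK1 and SIK1B, kinase genes that are near-identical copies with uncertain values. In 48 of the 58 coding runs the units were codons for leucine, and 37 of these 48 genes were lower; 6 of 6 genes with the run in the frame that reads alanine were lower, as were 3 of 4 in the frame that reads cysteine. Of the 48, 42 had the run within the first 40 codons, where the signal peptides of secreted and membrane proteins lie, and 32 of those 42 were lower; with the run farther in, 5 of 6 were lower. The 30 bases around the run are shown for genes that fell, on the coding strand in hg38 coordinates, with the CTG units in capitals.
FREM2, chr13:38687432-38687449, plus strand: ccccggCTGCTGCTGCTGCTGCTGcttctc
SRPX, chrX:38220724-38220744, minus strand: gcctCTGCTGCTGCTGCTGCTGCTGcgcgt
LRP5, chr11:68312748-68312774, plus strand: gCTGCTGCTGCTGCTGCTGCTGCTGCTGgc
CNPY3, chr6:42929622-42929645, plus strand: ttgCTGCTGCTGCTGCTGCTGCTGCTGccg
TM9SF3, chr10:96586767-96586784, minus strand: ctgtggCTGCTGCTGCTGCTGCTGccccgg
MLEC, chr12:120687345-120687362, plus strand: ctgcgaCTGCTGCTGCTGCTGCTGccgccg
QSOX1, chr1:180154947-180154964, plus strand: ccgtcgCTGCTGCTGCTGCTGCTGtggctg
LRRC59, chr17:50383147-50383164, minus strand: ctgaagCTGCTGCTGCTGCTGCTGctattt
PTTG1IP, chr21:44856280-44856297, minus strand: tgccatCTGCTGCTGCTGCTGCTGcaggag
PAPSS2, chr10:87659883-87659906, plus strand: ccgCTGCTGCTGCTGCTGCTGCTGCTGccg
In FREM2, SRPX, LRP5, CNPY3, TM9SF3, MLEC and QSOX1 the run lies in the first codons and spells leucines, in LRRC59 it lies at codon 250, in PTTG1IP it is in another frame, and in PAPSS2 it lies in the 5′ UTR.

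Among these genes, TM9SF3, a multispanning membrane protein of the Golgi, had 2404, 2419 and 2349.6 normalized counts in the sCAG libraries, against 18063, 17145 and 17044 in the sNT8 libraries (log2 fold change -2.86 ± 0.043 SE, limma adjusted p = 8.10e-27). SRPX, a secreted protein with sushi repeats, had 68, 78.8 and 60.4 normalized counts in the sCAG libraries, against 2061, 1880.5 and 1985 in the sNT8 libraries (log2 fold change -4.83 ± 0.10 SE, limma adjusted p = 6.35e-24). LRP5, a co-receptor for Wnt ligands, had 212, 159.8 and 240.4 normalized counts in the sCAG libraries, against 2127, 2303 and 2164 in the sNT8 libraries (log2 fold change -3.44 ± 0.12, adjusted p = 9.38e-12). Each gene had all its sCAG libraries below all its sNT8 libraries. FREM2, a protein of basement membranes, had 0, 9.59 and 0 normalized counts in the sCAG libraries, against 618, 485 and 461 in the sNT8 libraries (limma adjusted p = 0.00346). LRRC59, a leucine-rich repeat protein of the endoplasmic reticulum, had 456, 522 and 535 normalized counts in the sCAG libraries, against 6089.5, 6069.7 and 5776 in the sNT8 libraries (log2 fold change -3.57 ± 0.06, adjusted p = 1.16e-25). PAPSS2, an enzyme that makes the sulfate donor for proteoglycans, had 671, 709.5 and 681 normalized counts in the sCAG libraries, against 5924, 5809.9 and 5421 in the sNT8 libraries (log2 fold change -3.06 ± 0.054, adjusted p = 2.13e-25). No library of one group reached the range of the other in these 3 genes either. CNPY3, a chaperone of Toll-like receptors, had a log2 fold change of -3.11, MLEC, a lectin of the endoplasmic reticulum, of -2.51, and QSOX1, an enzyme that forms disulfide bonds in secreted proteins, of -2.27. PTTG1IP, a membrane glycoprotein, had -1.78.

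RPL14, a protein of the large ribosomal subunit, carries 10 units in the frame that reads alanine. It had 480.2, 522 and 432 normalized counts in the sCAG libraries, against 8682, 8297 and 7885 in the sNT8 libraries (log2 fold change -4.12 ± 0.062, adjusted p = 1.76e-25). Its processed pseudogene RPL14P1 had 60.8, 52.2 and 48.3 normalized counts in the sCAG libraries, against 5431, 5119.9 and 5115 in the sNT8 libraries (log2 fold change -6.58 ± 0.086, adjusted p = 4.65e-28). Both fell in every library, but the 2 sequences are close to each other and reads may have been divided between them, so the value of each is uncertain. Other genes among the 10 with the longest runs in the reference, of those tested with at least 5 RPM (reads of the gene relative to all reads on genes, in the usual scaling) in the higher group, were LRP8, a receptor for apolipoprotein E and reelin, at 11 units with a log2 fold change of -2.12, LTBP3, which binds latent TGF-beta, at 10 units with -1.84, and BRI3BP, a membrane protein, at 9 units with -3.68. MAP3K4, a kinase upstream of p38 and JNK, had 11 units in the alanine frame and -0.71. At 8 units several genes tie, CNPY3 and PAPSS2 among them, and the last of the 10 places went by name to BPGM, which makes a regulator of haemoglobin's affinity for oxygen, with the run in the 5′ UTR and -1.22. Below 5 RPM, ANKUB1 with 20 units in its 3′ UTR was not called (0.08), and NOTCH4, a Notch receptor with 10 units of leucine codons, had -1.15; the non-coding genes AC005540.1 and AC125494.1, with 15 and 14 units, had -0.49 and 0.67. AC005540.1 was not called without sCAG A (limma adjusted p = 0.121) or sNT8 B (0.0660). AC125494.1 was called in the main limma test of all 6 libraries or without sCAG A, but not without any other 1 of them (0.0504 to 0.199). With all 6 libraries it was not called by DESeq2 (adjusted p = 0.0890). The limma call was lost without a filter on low counts (adjusted p = 0.073) and when scaled to library totals (0.0910). The longest runs among the 10 lay in 3′ UTRs: DMPK, the kinase gene whose CTG run is expanded in myotonic dystrophy, had 20 units and had 859.5, 885 and 917 normalized counts in the sCAG libraries, against 745, 724 and 824 in the sNT8 libraries (log2 fold change 0.22 ± 0.07, adjusted p = 0.00923). CASK, a scaffold kinase of cell junctions, had 16 units in its 3′ UTR and had 813, 793 and 942 normalized counts in the sCAG libraries, against 534, 499.6 and 488 in the sNT8 libraries (log2 fold change 0.74 ± 0.078, adjusted p = 5.98e-09). The call of DMPK was lost without sNT8 B (limma adjusted p = 0.0577) and when scaled to library totals (0.251). In both genes every sCAG library lay above every sNT8 library, with a 1.16-fold difference for DMPK and a 1.67-fold difference for CASK.

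The loci at which CAG or CTG repeats expand in inherited disease lay on both sides of 0. Of 11 tested of 14 listed, 6 were higher and 5 lower (median 0.22). ATXN1, the gene of spinocerebellar ataxia type 1, had 5727, 5876 and 5651 normalized counts in the sCAG libraries, against 2026, 1892 and 1938 in the sNT8 libraries (log2 fold change 1.56 ± 0.047, adjusted p = 3.11e-20). TBP, the TATA-binding protein, had 485, 446 and 430.4 normalized counts in the sCAG libraries, against 694, 714 and 669.6 in the sNT8 libraries (log2 fold change -0.61 ± 0.078, adjusted p = 1.70e-07). The sCAG libraries lay above the sNT8 libraries for ATXN1 and below them for TBP. HTT, huntingtin, had 0.60, ATXN2 -0.25, and TCF4, a transcription factor with an intronic CTG repeat, -0.23. In most of these genes the repeat reads CAG and not CUG in the transcript.

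Some genes with a long run did not fall, or fell little. The sites of GAS6, COL5A1 and PLBD1, of CYB5B, whose fall was small, and of FN1 are set beside each other, with the CTG units in capitals.
GAS6, chr13:113863852-113863869, minus strand: ccgcagCTGCTGCTGCTGCTGCTGgccgcg
COL5A1, chr9:134642254-134642271, plus strand: cccccgCTGCTGCTGCTGCTGCTGtgggcg
PLBD1, chr12:14567622-14567642, minus strand: gcttCTGCTGCTGCTGCTGCTGCTGccgct
CYB5B, chr16:69465199-69465219, plus strand: ctagCTGCTGCTGCTGCTGCTGCTGcaaac
FN1, chr2:215435767-215435778, minus strand: gggcccgggCTGCTGCTGCTGgccgtccag
GAS6, a ligand of the receptor AXL, has 6 units at codon 18 and had 2417, 2533 and 2859 normalized counts in the sCAG libraries, against 2546, 2626 and 2614 in the sNT8 libraries (log2 fold change 0.00, adjusted p = 0.99), and the groups overlapped. COL5A1, a fibrillar collagen, has 6 units at codon 23 and a log2 fold change of 0.23 (adjusted p = 0.14, or 0.0478 without sNT8 B). PLBD1, a phospholipase B-like protein, has 7 units at codon 19 and rose, with 0.79 (adjusted p = 0.000108). CYB5B, the cytochrome b5 of the mitochondrial outer membrane, has 7 units in its 3′ UTR and fell by 0.25 on the log2 scale (adjusted p = 0.000195). FN1 has 4 units at codon 9 and had 941578, 938566 and 1026888 normalized counts in the sCAG libraries, against 358605, 314114 and 322422 in the sNT8 libraries (log2 fold change 1.55 ± 0.05, adjusted p = 4.05e-11), so that every sCAG library lay above every sNT8 library.

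Shorter runs were present in other genes that fell. NUCB1, a calcium-binding protein of the Golgi, and PRKCSH, the beta subunit of glucosidase II, share every base shown up to the end of the run.
NUCB1, chr19:48900839-48900850, plus strand: ctgttgccgCTGCTGCTGCTGctcctgctt
PRKCSH, chr19:11436130-11436141, plus strand: ctgttgccgCTGCTGCTGCTGctacccatg
NUCB1 had 196, 186 and 180.1 normalized counts in the sCAG libraries, against 2741, 2609.5 and 2457 in the sNT8 libraries (log2 fold change -3.79 ± 0.073, adjusted p = 1.37e-24). PRKCSH had 683, 625 and 739 normalized counts in the sCAG libraries, against 8823, 8298 and 7923 in the sNT8 libraries (log2 fold change -3.61 ± 0.059, adjusted p = 3.65e-25). Both genes fell in all 3 sCAG libraries. Others with 4 or 5 units, named after their values were seen, were IGFBP2, an IGF-binding protein, with a log2 fold change of -4.42, NUP210, a membrane protein of the nuclear pore, with -4.64, MATN3, a matrix protein of cartilage, with -5.38, and PLOD3, a lysyl hydroxylase of collagen, with -2.40. TGFB1, whose longest run is 2 units, had 519, 427 and 561 normalized counts in the sCAG libraries, against 7798, 6997 and 6833 in the sNT8 libraries (log2 fold change -3.85 ± 0.088, adjusted p = 2.94e-13), so a large fall was not limited to genes with a long run.

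The 12 largest falls included many genes that act in mitosis. They were taken from protein-coding genes with at least 100 RPM in the higher group and groups that did not overlap. CDK1, the kinase that drives entry into mitosis (ENSG00000170312, chr10:60778331-60794852), had 34, 37.3 and 24.1 normalized counts in the sCAG libraries, against 5399.6, 5216 and 5059 in the sNT8 libraries, a 162-fold fall (log2 fold change -7.34 ± 0.12, adjusted p = 2.28e-20). TOP2A, the topoisomerase that untangles sister chromatids (ENSG00000131747, chr17:40388516-40417950), had 150.5, 143 and 160.3 normalized counts in the sCAG libraries, against 22408, 22199 and 21159 in the sNT8 libraries (log2 fold change -7.17 ± 0.056, adjusted p = 1.57e-32). ASPM, a protein of spindle poles (ENSG00000066279, chr1:197084128-197146694), had 86.6, 79.9 and 81.2 normalized counts in the sCAG libraries, against 13184, 12218 and 11389.9 in the sNT8 libraries (log2 fold change -7.20 ± 0.067, adjusted p = 4.68e-31). In each of these genes the sCAG libraries averaged less than 1% of the level of the sNT8 libraries. HJURP, the chaperone that loads CENPA at centromeres (ENSG00000123485, chr2:233833416-233854566), had 47.4, 35.1 and 31.8 normalized counts in the sCAG libraries, against 5913, 5916 and 5378 in the sNT8 libraries (log2 fold change -7.21 ± 0.11, adjusted p = 4.47e-21). MKI67, the coat protein of mitotic chromosomes used as a marker of cycling cells (ENSG00000148773, chr10:128096659-128126385), had 257, 238 and 232 normalized counts in the sCAG libraries, against 27439.8, 27246 and 24014 in the sNT8 libraries (log2 fold change -6.75 ± 0.057, adjusted p = 3.28e-31). KIF18B, a kinesin of the spindle's astral microtubules, had 25.8, 33 and 23.1 normalized counts in the sCAG libraries, against 4066, 4116 and 3838 in the sNT8 libraries (log2 fold change -7.16 ± 0.11, adjusted p = 7.60e-26). DLGAP5, a spindle protein, CEP55, a protein of abscission, CKAP2L, a spindle protein, and DEPDC1, a cell cycle gene, completed the non-histone genes among the 12 largest falls, with log2 fold changes of -7.16, -6.88, -6.76 and -6.98. The histone genes HIST1H3G and HIST1H1B were the other members of that group of 12, with -7.63 and -6.75; near-identical copies of histone genes share reads, so these values are uncertain.

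**Figure D3:**
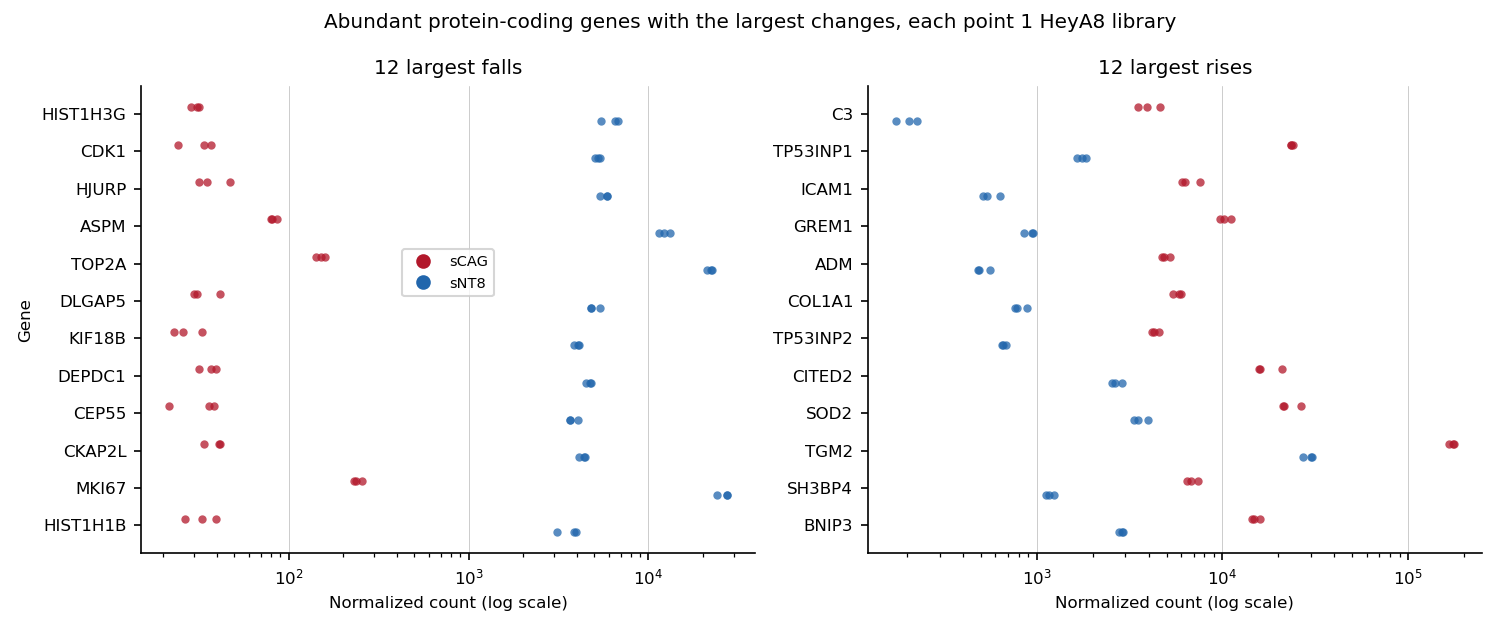
Normalized counts on a log axis (horizontal) of the 12 protein-coding genes with the largest falls and the 12 with the largest rises, each point 1 library; sCAG libraries are red and drawn above the sNT8 libraries, which are blue. CDK1 lies between 24.1 and 37.3 in the sCAG libraries and between 5059 and 5399.6 in the sNT8 libraries. Only genes whose groups did not overlap were eligible.

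The lists of the cell division machinery fell almost whole. Of the 19 mitotic cyclins, kinases and phosphatases tested, 19 were lower (median log2 fold change -5.01), and of the 12 mitotic kinesins, 12 were lower (median -5.36), against 30.2% of all genes tested. Among the kinases, NEK2, which separates centrosomes, had -7.54, BUB1 and TTK, kinases of the spindle checkpoint, had -6.65 and -6.55, and WEE1, which restrains CDK1, had the smallest fall at -1.37. KIF20A, a kinesin of the cleavage furrow, had -6.73, and KIF18A, which shortens spindle microtubules, had the smallest fall of the mitotic kinesins at -2.02. Of 37 kinetochore and centromere genes, 35 were lower and 1 higher (median -3.18); SPC25 and NUF2, subunits of the NDC80 complex, had -7.27 and -7.26, while CENPT, which links DNA to that complex, had 0.79. All 8 condensin genes were lower (median -3.37), led by NCAPH at -5.98, and NCAPH2, of condensin II, had -0.56. Of 24 centrosome and spindle genes, 23 were lower (median -3.14) and NUMA1, which anchors spindle poles, was not called (-0.02), though it was called lower at -0.14 when scaled to library totals.

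Lists of related genes that also work outside mitosis had medians nearer 0. Of 15 transport kinesins tested of 17 listed, 9 were lower and 4 higher (median -0.43), from KIF21B at -3.27 to KIF13A at 0.70. The 14 core subunits of the anaphase-promoting complex included 8 lower and 4 higher, all within -0.70 and 0.58 (median -0.30). Of 16 cohesin genes, 11 were lower and 3 higher (median -0.79); ESCO2, SGO1 and PTTG1, which act on cohesin in S phase and mitosis, had -5.22, -5.53 and -3.89, while the ring subunits SMC1A and STAG2 had -0.60 and -0.13. The cytoplasmic tubulins gave 8 lower and 3 higher of 14 (median -0.32), with TUBA1B at -1.86 and TUBB2A at 0.87.

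Genes of DNA synthesis were lower too, with medians nearer 0 than those of the mitotic lists. Of 24 genes of the replicative helicase and origin licensing, 23 were lower and ORC4 was not called (median -2.35). CDC45, a helicase subunit, had 10.3, 12.8 and 22 normalized counts in the sCAG libraries, against 277, 307 and 317 in the sNT8 libraries (log2 fold change -4.30 ± 0.22, adjusted p = 7.04e-15). MCM6, of the MCM ring that unwinds DNA, had 310.2, 299 and 299.7 normalized counts in the sCAG libraries, against 1699, 1925 and 1694 in the sNT8 libraries (log2 fold change -2.54 ± 0.072, adjusted p = 7.96e-21). PCNA, the sliding clamp of DNA polymerases, had 1089, 1145 and 1035 normalized counts in the sCAG libraries, against 1617, 1588 and 1515 in the sNT8 libraries (log2 fold change -0.53 ± 0.06, adjusted p = 1.74e-08). All 3 genes had every sCAG library below every sNT8 library, and the fall of PCNA was 1.44-fold. Of 30 DNA polymerase and replication factor genes, 29 were lower and POLE4 was higher (median -1.37). Of 28 genes of nucleotide synthesis, 24 were lower and 1, RRM2B, was higher (median -1.10); RRM2, the cell cycle subunit of ribonucleotide reductase, had -5.16, and RRM2B, its counterpart induced by p53, had 0.28. The Fanconi and homologous recombination list had 27 of 28 lower (median -2.54), with BRCA2 at -4.08 and BLM, a helicase, at -4.15; MUS81, a nuclease, was not called. Non-homologous end joining had 8 of 9 lower (median -0.47), and LIG4, its ligase, was higher at 0.67.

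The regulators of these programmes were themselves lower in part. FOXM1, an activator of mitotic genes, had 175, 188 and 178 normalized counts in the sCAG libraries, against 3923, 3755 and 3253 in the sNT8 libraries (log2 fold change -4.33 ± 0.074, adjusted p = 1.48e-25). MYBL2 had 104, 70.3 and 68.1 normalized counts in the sCAG libraries, against 2005, 2089.8 and 1665 in the sNT8 libraries (log2 fold change -4.57 ± 0.15, adjusted p = 1.17e-11). E2F1 had 26.8, 18.1 and 30.7 normalized counts in the sCAG libraries, against 261, 303 and 249.6 in the sNT8 libraries (log2 fold change -3.40 ± 0.19, adjusted p = 1.53e-14). No library of either group overlapped in these genes. LIN9 and LIN54, of the MuvB core, had log2 fold changes of -1.75 and -0.44, LIN37 was higher at 0.93, and LIN52 was not called. E2F8 and E2F2 had -4.16 and -3.35, whereas E2F4, a repressor, was higher at 0.34 and E2F3 was not called. RB1, the retinoblastoma protein, had -0.16 and its relative RBL1 -2.29. Among G1 genes, CCND1 and CCND2, the D cyclins that activate CDK4 and CDK6, were higher with 1.18 and 4.22, while CDK4 and CDC25A, a phosphatase that activates CDK2, were lower with -1.03 and -3.18. LMNB1, a lamin whose loss is used as a marker of senescent cells, had 143, 146 and 187 normalized counts in the sCAG libraries, against 4591, 4536 and 4077 in the sNT8 libraries (log2 fold change -4.79 ± 0.087, adjusted p = 1.46e-21). MYC fell by 0.57 on the log2 scale (adjusted p = 0.0173), and without sNT8 A it was not called (limma adjusted p = 0.0759).

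The structure of the nucleus and the upkeep of chromatin were lower in most listed genes. Of 28 nuclear pore genes, 23 were lower and 2 higher (median -0.83), from NUP210 at -4.64 to POM121, a membrane anchor of the pore, at 0.62. NUP107, of the scaffold that lines the pore, had 1495, 1435 and 1397 normalized counts in the sCAG libraries, against 3583, 3398 and 3342 in the sNT8 libraries (log2 fold change -1.25 ± 0.052, adjusted p = 2.66e-17). Of 12 lamina genes, 8 were lower and none higher (median -0.68), with SYNE2, which links the nucleus to the cytoskeleton, at -2.96, TMPO, which binds lamins, at -2.36 and LMNA, the A-type lamin, at -0.15. Of 17 histone chaperone and DNA methylation genes, 13 were lower and 2 higher (median -0.93). ASF1B, a histone chaperone of dividing cells, had 13.4, 16 and 26.4 normalized counts in the sCAG libraries, against 672, 712 and 554 in the sNT8 libraries (log2 fold change -5.09 ± 0.19, adjusted p = 7.58e-16). DNMT1, which copies DNA methylation after replication, had 2139, 2080.5 and 2249.7 normalized counts in the sCAG libraries, against 7277, 7503 and 6689 in the sNT8 libraries (log2 fold change -1.73 ± 0.05, adjusted p = 1.22e-20). NUP107, ASF1B and DNMT1 had every sCAG library below every sNT8 library, whereas DNMT3B, which methylates unmodified DNA, was not called (0.10). Checkpoint signalling had 8 of 13 lower and none higher (median -0.48), with CHEK1 and CHEK2, the checkpoint kinases, at -1.42 and -1.92, while ATM, the kinase that senses double-strand breaks, was not called (0.07). Of 7 mismatch repair genes, 5 were lower and none higher (median -0.77). Among CDK inhibitors, CDKN1A was higher and the other 5 tested were lower, from CDKN3, a phosphatase that acts on CDK, at -5.40 to CDKN1C at -0.70, with CDKN1B, p27, at -0.71.

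Cell cycle elements in the promoters are given as shares, with no test. RefSeq promoters (GRCh38.p14, 250 bases before to 50 after the start) were found for 10900 of the 13422 protein-coding genes tested, and TTTGAA or TTCGAA, the core of the cell cycle homology region, stood on either strand of 11.6% of them. Among protein-coding genes at least 16-fold lower it stood in 63 of the 124 with a promoter (50.8%), and in 10 of 12 mitotic kinesins (83.3%), 5 of 7 condensin genes (71.4%), 14 of 22 centrosome and spindle genes (63.6%) and 16 of 30 kinetochore genes (53.3%). It stood in 2 of 14 promoters of the anaphase-promoting complex core (14.3%). The E2F motifs TTTCCCGC, TTTGGCGC, TTTCGCGC and TTCCCGCC, of which the first and last can overlap, stood in 8.16% of all promoters, in 12 of 21 of the helicase and licensing genes (57.1%), 12 of 26 of the polymerases and replication factors (46.2%) and 10 of 26 of the Fanconi list (38.5%). They also stood in 4 of 14 promoters of the anaphase-promoting complex core (28.6%), whose median log2 fold change was -0.30. The E2F shares were 26.7% for the kinetochore list and 27.3% for the centrosome and spindle list. CCAAT stood in 36.5% of all promoters and in 84 of the 124 (67.7%) of the genes at least 16-fold lower. Promoters were found for only 68.4% of the mitotic cyclin list and 73.3% of the transport kinesins, and for this incomplete coverage no share is given. A match is a description of the letters and not of binding. The 120 bases before the start are shown for a mitotic cyclin, a mitotic kinase and a helicase subunit as examples, on the gene's strand, with the motifs in capitals (ATTGG is CCAAT on the other strand).
CCNB2, chr15:59105026-59105145, plus strand: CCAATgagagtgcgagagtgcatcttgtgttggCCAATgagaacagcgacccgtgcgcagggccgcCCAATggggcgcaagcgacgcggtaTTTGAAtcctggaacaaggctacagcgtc
PLK1, chr16:23678769-23678888, plus strand: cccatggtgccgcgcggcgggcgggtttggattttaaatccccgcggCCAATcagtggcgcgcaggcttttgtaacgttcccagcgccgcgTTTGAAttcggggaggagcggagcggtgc
MCM6, chr2:135876444-135876563, minus strand: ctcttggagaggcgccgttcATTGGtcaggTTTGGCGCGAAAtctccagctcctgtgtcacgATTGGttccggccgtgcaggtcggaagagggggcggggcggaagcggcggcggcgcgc
In CCNB2 and PLK1 the TTTGAA begins 29 bases before the start, with CCAAT at 54, 87 and 120 bases in CCNB2 and at 73 in PLK1, while MCM6 holds E2F motifs that overlap at 90 and 86 bases. CCNB2 had a log2 fold change of -3.19, PLK1, which controls mitotic entry and the spindle, had -4.95, and MCM6 had -2.54. PCNA, not shown, also holds overlapping E2F motifs, at 60 and 59 bases, and CCAAT at 79 and 25. Its fall, given above, was much smaller than that of MCM6.

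**Figure D4:**
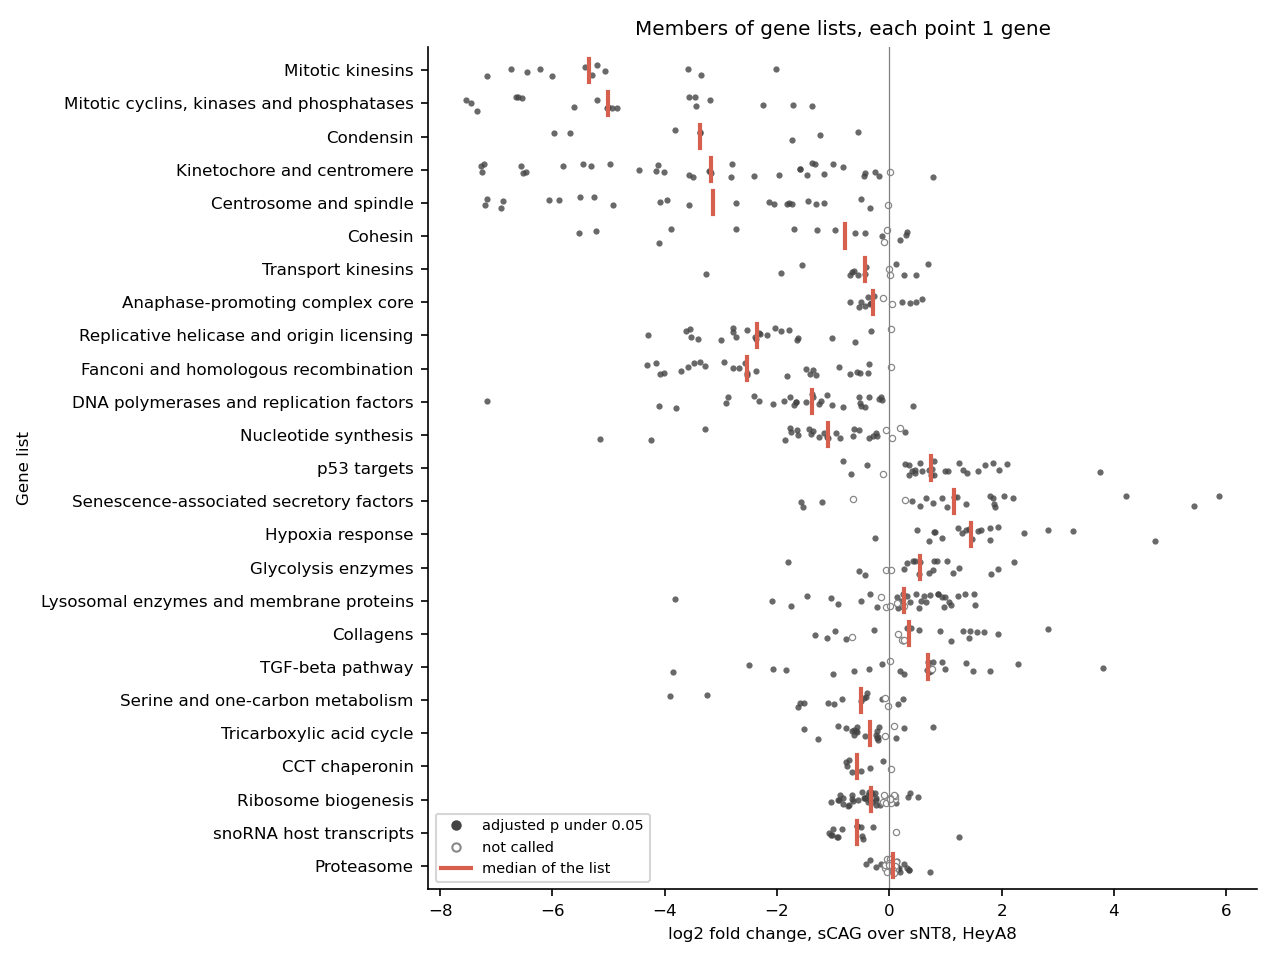
Log2 fold change, sCAG over sNT8 (horizontal axis), of the tested members of gene lists (rows); filled points are called genes, open points genes not called, and vertical marks medians. The mitotic lists have medians from -5.36 to -3.14, the hypoxia list has a median of 1.45 and the proteasome list one of 0.06.

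Targets of p53 were mostly higher. Of 28 tested, 24 were higher and 3 lower (median log2 fold change 0.75), against 29.3% of all genes higher. TP53INP1, which acts in autophagy and cell death (ENSG00000164938, chr8:94925972-94949411), had 23915, 23244 and 23523 normalized counts in the sCAG libraries, against 1756, 1654 and 1849 in the sNT8 libraries (log2 fold change 3.75 ± 0.045, adjusted p = 1.03e-28). MDM2 (ENSG00000135679, chr12:68808176-68850686) had 60844, 62112 and 60812 normalized counts in the sCAG libraries, against 14539, 14695 and 13765 in the sNT8 libraries (log2 fold change 2.10 ± 0.037, adjusted p = 2.26e-25). CDKN1A (ENSG00000124762, chr6:36676460-36687339) had 65589.7, 61780.2 and 68622 normalized counts in the sCAG libraries, against 19004, 14992 and 16758 in the sNT8 libraries (log2 fold change 1.96 ± 0.087, adjusted p = 7.40e-07). The sCAG libraries lay above the sNT8 libraries in all 3 genes. TIGAR, which lowers glycolytic flux, had 1.70, GDF15, a secreted stress cytokine, 1.85, and ZMAT3, an RNA-binding protein, 1.24. PERP, DDB2 and CCNG1 were the members called lower, with -0.83, -0.69 and -0.40, and FUCA1 was not called.

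Genes of cell death gave a mixed picture. Of 22 death receptor and caspase genes tested, 14 were higher and 5 lower (median 0.32). FAS, the receptor of Fas ligand, had 3282, 3226 and 3328 normalized counts in the sCAG libraries, against 1335, 1206 and 1209 in the sNT8 libraries (log2 fold change 1.39 ± 0.054, adjusted p = 6.75e-18). TNFRSF10B, a receptor for TRAIL, had 13034, 13397 and 13934 normalized counts in the sCAG libraries, against 7674, 8165 and 8099 in the sNT8 libraries (log2 fold change 0.75 ± 0.042, adjusted p = 1.49e-14). BIRC5, survivin, an inhibitor of apoptosis with a part in mitosis, had 30.9, 30.9 and 35.1 normalized counts in the sCAG libraries, against 2553, 2609.5 and 2412 in the sNT8 libraries (log2 fold change -6.25 ± 0.10, adjusted p = 4.33e-26). FAS and TNFRSF10B had all sCAG libraries above all sNT8 libraries, and BIRC5 had them below. CASP8, the caspase that death receptors activate, was not called, with 1767, 1753 and 1693 normalized counts in the sCAG libraries and 1771, 1812 and 1703 in the sNT8 libraries (log2 fold change -0.02, or -0.14 and called when scaled to library totals). FASLG, the Fas ligand gene, did not pass the filter on low counts. In the BCL2 family 9 of 16 were higher and 4 lower (median 0.29); BMF, a BH3-only activator of apoptosis, had 2.56, BCL2L1, an inhibitor, had 1.53, MCL1, another inhibitor, had -0.63, and BCL2 had -1.26.

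Of the 11 listed Argonautes and genes of microRNA processing, 3 were higher and 6 lower (median log2 fold change -0.18). AGO2, the Argonaute that can cut its target, had 11488, 10619 and 12267 normalized counts in the sCAG libraries, against 10596, 9993 and 10773 in the sNT8 libraries (log2 fold change 0.13 ± 0.048, adjusted p = 0.0214), and the groups overlapped. The other Argonautes AGO1, AGO3 and AGO4 had log2 fold changes of -0.50, 0.59 and -0.18, all called. AGO2 was not called without sCAG A (limma adjusted p = 0.0664), sCAG C (0.179) or sNT8 B (0.128), nor when scaled to library totals (0.879), and AGO4 was not called without sCAG B (0.170), sCAG C (0.142), sNT8 A (0.0514) or sNT8 B (0.194). AGO4 was not called by DESeq2 (adjusted p = 0.0717) or without a filter on low counts (0.0687) either. DICER1, which makes microRNAs from their hairpins, was not called (0.08, adjusted p = 0.127), although without sNT8 A it was (0.0485). DGCR8, the partner of DROSHA, was the highest of the list at 0.96, and TARBP2, a partner of DICER1, was the lowest at -0.68, next to XPO5, which exports microRNA hairpins, at -0.53. Of 28 genes of the TNRC6 proteins, deadenylation and decapping, 9 were higher and 11 lower (median -0.08), from PAN2, a deadenylase subunit, at -1.26 to TOB1, which recruits the CCR4-NOT deadenylase, at 1.84. The RNA exosome list had 10 of 15 lower and 1 higher (median -0.58).

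The 12 largest rises among protein-coding genes with at least 100 RPM in the higher group and groups that did not overlap are given next. TP53INP1, described above, is among them. TGM2, transglutaminase 2, which cross-links proteins (ENSG00000198959, chr20:38127387-38166578), had 173755, 166174 and 176489.5 normalized counts in the sCAG libraries, against 29914, 30281 and 27252 in the sNT8 libraries (log2 fold change 2.56 ± 0.039, adjusted p = 1.16e-25). C3, the central component of complement (ENSG00000125730, chr19:6677704-6730562), had 3916, 3503 and 4615 normalized counts in the sCAG libraries, against 206, 174 and 226 in the sNT8 libraries (log2 fold change 4.30 ± 0.11, adjusted p = 1.85e-13). ICAM1, an adhesion molecule for leukocytes (ENSG00000090339, chr19:10270835-10286615), had 6071, 6263 and 7537 normalized counts in the sCAG libraries, against 539, 515 and 634 in the sNT8 libraries (log2 fold change 3.55 ± 0.091, adjusted p = 3.15e-12). GREM1, a secreted antagonist of bone morphogenetic proteins, had 9680.0, 10158 and 11159.5 normalized counts in the sCAG libraries, against 856, 949.8 and 942 in the sNT8 libraries (log2 fold change 3.49 ± 0.055, adjusted p = 1.54e-25). As the choice required, all 4 genes had each sCAG library above each sNT8 library. SOD2, the manganese superoxide dismutase of mitochondria (ENSG00000112096, chr6:159669057-159745186; the files list another identifier under this symbol), had 21144, 21520.5 and 26333 normalized counts in the sCAG libraries, against 3506, 3336 and 3991 in the sNT8 libraries (log2 fold change 2.67 ± 0.11, adjusted p = 6.57e-07). The remaining members of the 12 were COL1A1, a chain of type I collagen, with 2.83, ADM, the vasodilator peptide adrenomedullin, with 3.27, TP53INP2, an autophagy protein, with 2.71, CITED2, a transcriptional co-regulator, with 2.70, SH3BP4, an endocytic adaptor, with 2.55, and BNIP3, a mitophagy receptor, with 2.39.

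Secreted factors associated with senescence were mostly higher. Of 23 tested of 28 listed, 18 were higher and 3 lower (median 1.16). IL6, an inflammatory cytokine, had 326, 434 and 433 normalized counts in the sCAG libraries, against 22, 21.9 and 17.1 in the sNT8 libraries (log2 fold change 4.22 ± 0.17, adjusted p = 2.40e-17). IGFBP5, an IGF-binding protein, had 422, 391 and 439 normalized counts in the sCAG libraries, against 5.49, 7.61 and 5.41 in the sNT8 libraries (log2 fold change 5.88 ± 0.21, adjusted p = 8.83e-19). CSF2, the cytokine GM-CSF, had 140.2, 98 and 143 normalized counts in the sCAG libraries, against 3.66, 0.952 and 1.8 in the sNT8 libraries (log2 fold change 5.42 ± 0.36, adjusted p = 4.91e-13). In these 3 genes no sNT8 library exceeded 22.0 normalized counts. Every sCAG library lay above every sNT8 library, as in 31.7% of all genes tested. CXCL8, a chemokine for neutrophils, had 1.89, and PLAT, the tissue plasminogen activator, 2.05; IL1A, PLAUR and MMP1 were lower with -1.55, -1.57 and -1.19. AREG, a ligand of EGFR, had -0.64 (adjusted p = 0.221).

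Within the matrix and TGF-beta genes, members with related roles moved in opposite directions. Of 22 collagens, 13 were higher and 5 lower (median 0.35), from COL6A3 at -1.32 to COL1A1 at 2.83. Among collagen-modifying enzymes, 12 of 17 were higher (median 0.50), including P4HA2, a prolyl hydroxylase, at 1.67 and LOX, which cross-links collagen, at 1.59; PLOD3 was the lowest at -2.40. The TGF-beta list had 15 of 25 higher and 8 lower (median 0.68). TGFB2, a ligand, had 229.8, 271 and 255 normalized counts in the sCAG libraries, against 12.8, 10.5 and 36 in the sNT8 libraries (log2 fold change 3.81 ± 0.40, adjusted p = 3.43e-05). TGFB1, another ligand, had -3.85, so the ligand genes lay on opposite sides of 0. TGFBR1, a receptor, was higher at 1.37, THBS1, which activates latent TGF-beta, at 2.30, and ID1 and ID3, which block basic helix-loop-helix factors, were lower at -2.06 and -2.51. Of 16 integrins, 5 were higher and 7 lower (median -0.21), with ITGB8 at 4.81 and ITGB4 at -1.69. Receptor tyrosine kinases gave 14 lower and 3 higher of 22 (median -0.36), from ERBB4 at -2.90 to EPHA4 at 1.33. Of 22 epidermal genes listed, 4 were tested; FLG, the barrier protein filaggrin, had 301, 339.8 and 377 normalized counts in the sCAG libraries, against 8.23, 5.71 and 11.7 in the sNT8 libraries (log2 fold change 5.20 ± 0.23, adjusted p = 8.44e-17).

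Secreted regulators of growth and matrix had members far above and far below 0. Of 12 IGF-binding protein and IGF genes, 6 were higher and 3 lower (median 0.37): IGFBP5 was the highest, IGFBP3, the main carrier of IGFs in blood, had 2.20, and IGFBP2 was the lowest. Of 18 matrix proteases and inhibitors, 9 were higher and 5 lower (median 0.24). MMP2, a gelatinase, had 107, 149 and 147 normalized counts in the sCAG libraries, against 26.5, 26.6 and 22.5 in the sNT8 libraries (log2 fold change 2.36 ± 0.20, adjusted p = 1.19e-10). ADAMTS5, an aggrecanase, had 382, 474 and 416 normalized counts in the sCAG libraries, against 61.3, 46.6 and 42.4 in the sNT8 libraries (log2 fold change 3.07 ± 0.15, adjusted p = 7.10e-16). MMP11, stromelysin 3, had 3.09, 1.06 and 3.29 normalized counts in the sCAG libraries, against 29.3, 29.5 and 59.5 in the sNT8 libraries (log2 fold change -3.53 ± 0.45, adjusted p = 1.74e-07). MMP2 and ADAMTS5 had their sCAG libraries above the sNT8 libraries and MMP11 had them below. Wnt genes gave 13 higher and 8 lower of 29 (median 0.17), with the ligand WNT5A at 1.38, the inhibitors DKK1 and DKK3 at 0.88 and 1.66, the receptor LGR4 at 1.72, and the co-receptor LRP5 as the lowest. Of 20 feedback genes of the ERK pathway, 11 were lower and 6 higher (median -0.24), with DUSP4, a phosphatase of ERK, at -1.44 and SPRY1, an inhibitor of the pathway, at 1.99. Of 21 FOXO and growth-arrest genes, 12 were higher and 4 lower (median 0.50), with SESN3, a stress-induced inhibitor of mTORC1, at 2.40, PIK3IP1, an inhibitor of PI3K, at 1.92 and CCNG2, a cyclin of resting cells, at 1.31. NF-kB subunits and feedback genes had 12 of 22 higher and 8 lower (median 0.17), within -0.91 for NFKB2, a precursor subunit, and 1.24 for TNIP1, an inhibitor.

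Genes of the hypoxia response were higher in 19 of 20 (median 1.45). ANGPTL4, a secreted inhibitor of lipoprotein lipase, had 3461, 3596 and 3577 normalized counts in the sCAG libraries, against 140, 132 and 124 in the sNT8 libraries (log2 fold change 4.74 ± 0.073, adjusted p = 1.39e-26). BNIP3 had 14481, 14730.5 and 15858 normalized counts in the sCAG libraries, against 2933, 2883 and 2767 in the sNT8 libraries (log2 fold change 2.39 ± 0.045, adjusted p = 9.99e-25). VEGFA, the endothelial growth factor, had 7846, 6744 and 7675 normalized counts in the sCAG libraries, against 2046, 2459 and 1929 in the sNT8 libraries (log2 fold change 1.79 ± 0.092, adjusted p = 9.82e-08). Every sCAG library was above every sNT8 library in these genes. HIF1A and EPAS1, the oxygen-regulated subunits of the response, had 1.22 and 1.94, and VLDLR, a lipoprotein receptor, was the member called lower at -0.26. Of 21 glycolysis genes, 16 were higher and 3 lower (median 0.56), with the glucose transporters SLC2A1 and SLC2A3 at 1.81 and 1.94, PFKFB4, which sets the level of a glycolytic activator, at 2.21, and ALDOC, an aldolase, at -1.81. The tricarboxylic acid cycle went the other way, with 17 of 22 lower and 3 higher (median -0.34), from IDH2 at -1.51 to IDH3G at 0.78.

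Synthesis of serine and uptake of amino acids were lower in part. Of 17 genes of serine and one-carbon metabolism, 13 were lower and 2 higher (median -0.51). PHGDH, the first enzyme of serine synthesis, had 667, 629.6 and 518 normalized counts in the sCAG libraries, against 9144, 9215 and 8819.5 in the sNT8 libraries (log2 fold change -3.91 ± 0.072, adjusted p = 2.41e-18). PSAT1, the next enzyme, had 1313, 1257 and 1223 normalized counts in the sCAG libraries, against 11319, 12500.0 and 12041 in the sNT8 libraries (log2 fold change -3.24 ± 0.049, adjusted p = 8.93e-27). ASNS, asparagine synthetase, had 11.3, 28.8 and 12.1 normalized counts in the sCAG libraries, against 480.4, 563 and 389 in the sNT8 libraries (log2 fold change -4.81 ± 0.31, adjusted p = 1.22e-07). All 3 genes are known targets of ATF4, the transcription factor of amino acid stress, and no groups overlapped. ATF4 itself had 0.21 (adjusted p = 5.49e-05), and among 20 genes of ATF4 and its regulators 7 were higher and 10 lower (median -0.11), from ASNS to ATF5, a related factor, at 3.02. CHAC1, which degrades glutathione, and NUPR1, a stress protein, had -2.60 and -4.12. Of 19 amino acid transporters, 10 were lower and 6 higher (median -0.17); SLC7A11, the cystine transporter, SLC1A4 and SLC1A5, transporters of neutral amino acids, and SLC7A5, a transporter of large ones, had -2.96, -3.33, -2.52 and -2.65, while SLC43A2 had 2.05.

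Lysosomal and autophagy genes were higher more often than lower. Of 39 lysosomal genes, 25 were higher and 9 lower (median 0.26), with LIPA, the acid lipase, at 1.52 and TPP1, a peptidase, at 1.11, and with CTSV, a cathepsin, at -3.81 and SMPD1, the acid sphingomyelinase, at -2.09. Of 31 autophagy genes, 17 were higher and 7 lower (median 0.16). SQSTM1, the cargo receptor p62, had 35763, 37082 and 39671 normalized counts in the sCAG libraries, against 8900.5, 8407 and 9490.1 in the sNT8 libraries (log2 fold change 2.07 ± 0.046, adjusted p = 6.88e-22). MAP1LC3B, a protein of the autophagosome membrane, had 1.17. FTL and FTH1, the ferritin chains that store iron, had 1.74 and 1.49, and HMOX1, which breaks down heme, had 1.53, in a list of 24 targets of NRF2 with 10 higher and 6 lower (median 0.06, or -0.06 when scaled to library totals). Sterol synthesis had 12 of 24 higher and 6 lower (median 0.10, or -0.03 with 7 higher when scaled to library totals), with FDFT1, squalene synthase, at -0.64 and STARD4, a sterol carrier, at 0.69; fatty acid synthesis had 13 of 19 lower and 3 higher (median -0.50), with FASN, the fatty acid synthase, at -1.33.

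Much of the machinery of protein synthesis and folding lay near 0. The proteasome had 11 of 31 subunits higher, 4 lower and 16 not called (median 0.06, or -0.06 with 4 higher when scaled to library totals), all within -0.42 and 0.72, and without sNT8 C 7 were higher. Translation factors gave 18 higher and 14 lower of 44 (median 0.04, or -0.09 when scaled to library totals), with EIF4EBP2, a repressor of cap-dependent translation, at 1.59 and EIF2B5, a subunit of the exchange factor of eIF2, at -1.11. Ribosome biogenesis had 29 of 43 lower and 4 higher (median -0.33), led by RRP12, a factor of small-subunit export, at -1.04. The CCT chaperonin, which folds actin and tubulin, had 7 of 8 subunits lower (median -0.58). Among heat shock genes 10 of 22 were higher and 8 lower (median 0.20), with HSPA1A, the inducible HSP70, at 2.03 and HSPD1, the mitochondrial HSP60, at -1.36; HSPA1A and HSPA1B are near-identical copies. In the endoplasmic reticulum, 13 of 23 chaperones and oxidoreductases were higher and 7 lower (median 0.18), and the oligosaccharyl transferase and translocon list gave 12 higher and 14 lower of 31, with LRRC59 and PRKCSH as its lowest members.

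Non-coding RNAs went both ways. Host transcripts of small nucleolar RNAs were lower in 13 of 15 and higher in 1 (median -0.58), with SNHG1 at -1.01, GAS5 at -0.58 and SNHG14 the highest at 1.24. MIR17HG, the host of a cluster of microRNAs that includes miR-17, had 179, 208 and 108 normalized counts in the sCAG libraries, against 929.7, 1195 and 1078 in the sNT8 libraries (log2 fold change -2.73 ± 0.28, adjusted p = 0.000488). MIR210HG, the host of miR-210, had 813, 878 and 851 normalized counts in the sCAG libraries, against 36.6, 35.2 and 27.9 in the sNT8 libraries (log2 fold change 4.64 ± 0.13, adjusted p = 6.18e-21). MIR193BHG, the host of miR-193b, had 2135, 2320.2 and 2332 normalized counts in the sCAG libraries, against 222, 228 and 228 in the sNT8 libraries (log2 fold change 3.31 ± 0.07, adjusted p = 1.29e-23). The sCAG libraries lay below the sNT8 libraries for MIR17HG and above them for the other hosts. These hosts were chosen among long non-coding genes whose groups did not overlap. HELLPAR had -3.17, and AC099850.3, AC091057.1 and AL161891.1, long non-coding genes without a given role, had -4.87, -3.91 and -2.91. AL162274.1, AL138828.1 and AC144831.1 were among the highest with 3.31, 3.61 and 4.50. The sources used here do not state whether reads were counted by strand, so reads of antisense and overlapping genes cannot be told apart.

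Among abundant genes, some had near-equal levels. The 10 protein-coding genes with at least 100 RPM in both groups and a log2 fold change nearest 0 were IL13RA2, EXT1, MARF1, ZRANB2, AAK1, YWHAZ, MSL1, CLINT1, GNG12 and SLC38A1. YWHAZ, a 14-3-3 adaptor protein, had 91328, 93641 and 90553 normalized counts in the sCAG libraries, against 95741, 89895 and 89779 in the sNT8 libraries. EXT1, an enzyme that builds heparan sulfate, had 10567, 11261 and 11290.1 normalized counts in the sCAG libraries, against 11239, 10900.3 and 10959 in the sNT8 libraries. In both genes the groups overlapped, and the log2 fold changes were 0.0011 and 0.0003; when scaled to library totals both were called lower, at -0.12 each.

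The same short RNAs were given to PC3 cells, and the difference between the effects of sCAG over sNT8 in the 2 lines was tested in an edgeR fit of all 18 libraries. The labels do not say that the lines were prepared together. Of 27105 genes tested, 10051 (37.1%) differed at an adjusted p under 0.05, with the effect higher in HeyA8 for 4055 (15%) and lower in HeyA8 for 5996 (22.1%). Named genes are the 5 lowest and 5 highest with at least 20 RPM in the higher group and 1 RPM in each group compared. TOP2A had a log2 fold change of -7.15 in HeyA8 and -1.49 in PC3, a difference of -5.66 (adjusted p = 1.50e-39). HJURP had -7.19 in HeyA8 and -1.91 in PC3, ASPM had -7.18 and CKAP2L -6.75 in HeyA8, against -1.52 and -1.16 in PC3. For the mitotic cyclin, kinase and phosphatase list the median was -4.97 in HeyA8 and -1.47 in PC3, with 18 of 19 genes called lower in HeyA8 than in PC3 and 1 called higher. For the mitotic kinesins it was -5.33 in HeyA8 and -1.58 in PC3, with 12 of 12 called lower in HeyA8. DEPDC1, DLGAP5 and CDK1, which were under 1 RPM in the HeyA8 sCAG libraries, had differences of -6.25, -5.57 and -5.39. BATF2, a transcription factor induced by interferon, had -0.87 in HeyA8 and 4.72 in PC3 (difference -5.60, adjusted p = 6.62e-26).

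Under the same limits, genes with a higher effect in HeyA8 were led by PAG1, an adaptor of Src family kinases, with 4.46 in HeyA8 and -0.64 in PC3 (difference 5.09, adjusted p = 2.77e-27). ITGB8, an integrin subunit that activates latent TGF-beta, had 4.86 in HeyA8 and 0.53 in PC3 (adjusted p = 1.57e-18). ANGPTL4, FILIP1L and COL1A1 followed with differences of 3.73, 3.28 and 3.14. MDM2 had 2.13 in HeyA8 and 0.30 in PC3 (difference 1.83, adjusted p = 1.01e-26), and 17 of the 28 p53 targets were called higher in HeyA8 than in PC3 and 2 lower. The p53 list had a median of 0.79 in HeyA8 and 0.21 in PC3. TP53INP1 and CDKN1A were higher with sCAG in PC3 too, at 1.935 and 1.325, against 3.78 and 1.98 in HeyA8. FAS had 1.42 in HeyA8 and 1.53 in PC3, a difference that did not pass the edgeR test (adjusted p = 0.494). The hypoxia list had a median of 1.48 in HeyA8 and 0.47 in PC3, with 17 of 20 called higher in HeyA8, and sterol synthesis had 0.13 in HeyA8 and -0.59 in PC3, with 19 of 24 called higher in HeyA8. Interferon-stimulated genes went the other way. Of 34 tested in HeyA8, 21 were higher and 10 lower with sCAG, at a median of 0.62 in HeyA8 and 2.65 in PC3, and 32 were called lower in HeyA8 than in PC3. Within HeyA8, OASL, which enhances RNA sensing, had 78.3, 108 and 65.9 normalized counts in the sCAG libraries, against 15.6, 19 and 25.2 in the sNT8 libraries (log2 fold change 2.02 ± 0.25, adjusted p = 1.00e-07), and OAS3, which makes an activator of RNase L, had 239, 186 and 218 normalized counts in the sCAG libraries, against 967, 893 and 904 in the sNT8 libraries (log2 fold change -2.10 ± 0.093, adjusted p = 1.08e-16). OASL was thus above and OAS3 below in all 3 sCAG libraries; ISG15, a ubiquitin-like modifier, had 1.19 and MX1, an antiviral GTPase, -1.23. Genes of MHC class I and antigen processing had a median of 0.35 in HeyA8 and 1.70 in PC3, with 17 of 19 called lower in HeyA8. Protein-coding genes with at least 6 CTG units had a median of -1.20 in HeyA8 and -1.48 in PC3. LRP8 had -2.09 in HeyA8 and -2.05 in PC3 (adjusted p = 0.807), and BRI3BP had -3.70 in HeyA8 and -3.74 in PC3 (adjusted p = 0.938), and neither passed the test of a difference between the lines. The other 8 of the 10 genes with the longest runs at 5 RPM or more passed it. CASK had 0.78 in HeyA8 and -0.83 in PC3 (adjusted p = 7.36e-19), and DMPK had 0.25 in HeyA8 and -0.43 in PC3 (adjusted p = 2.21e-05), so that the signs in the 2 lines were opposite. LRP5, RPL14P1, RPL14, LTBP3 and MAP3K4 had lower values in HeyA8, with differences from -0.92 for RPL14P1 to -0.32 for MAP3K4, and BPGM had a higher one (difference 0.93, adjusted p = 1.64e-05).

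**Figure D5:**
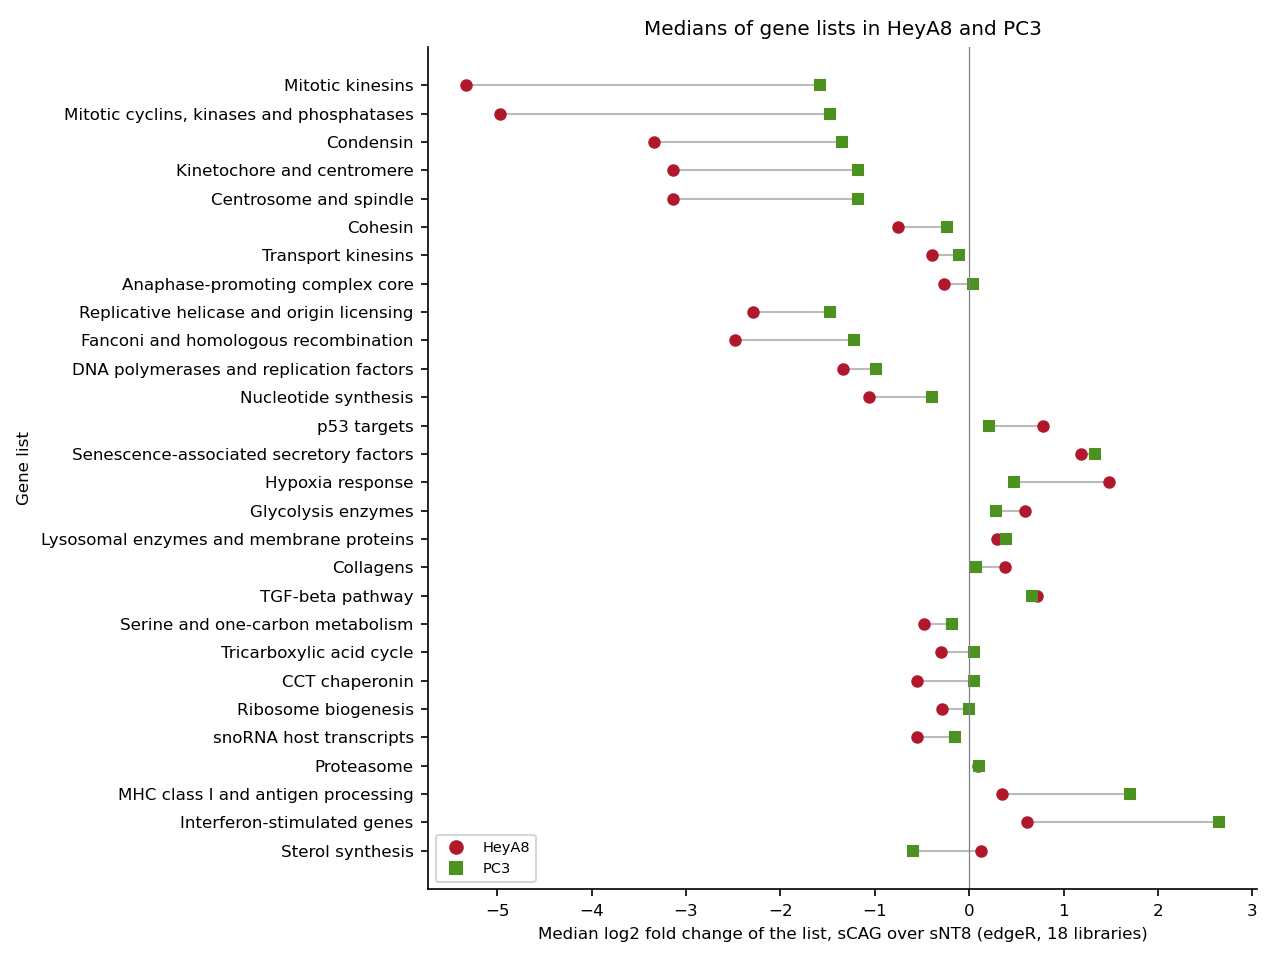
Median log2 fold change of sCAG over sNT8 (horizontal axis) of gene lists (rows) in HeyA8 (red circles) and in PC3 (green squares), from the edgeR fit of 18 libraries. The mitotic kinesins lie at -5.33 in HeyA8 and -1.58 in PC3, and the interferon-stimulated genes at 0.62 in HeyA8 and 2.65 in PC3.

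Set directly against sG5C in HeyA8, the same sCAG libraries differed in most genes tested. Of 27105 genes tested in the fit of 18 libraries, 15523 (57.3%) differed, 8026 higher with sCAG (29.6%) and 7497 lower (27.7%). When scaled to library totals, the median log2 fold change of all genes shifted to -0.28, with 5416 genes higher and 10890 lower, so that 33.2% of the calls were higher, against 51.7% in the fit above. Among genes with at least 20 RPM in the higher group and 1 RPM in each group, HJURP, TOP2A, ASPM, CKAP2L and BUB1 had the lowest differences, with log2 fold changes of sCAG over sG5C from -7.59 for HJURP to -6.67 for BUB1 (adjusted p = 9.55e-45 and 1.18e-44). KIF18B, DEPDC1, CDK1 and DLGAP5, which were under 1 RPM in the sCAG libraries, had -7.34, -7.33, -7.13 and -6.89. The highest under the same limits were COL1A1 at 5.43, ITGB8 at 5.07, TGM2 at 4.96, SNAI2, a transcription factor of mesenchymal cells, at 4.86, and ATF5 at 4.85. COL1A1 averaged 152 RPM in HeyA8 sCAG libraries and 4.35 in HeyA8 sG5C libraries, beside 23.17 in HeyA8 sNT8 libraries. SNAI2 averaged 107.3 RPM in HeyA8 sCAG, 4.524 in HeyA8 sG5C and 41.28 in HeyA8 sNT8 libraries. In that order TGM2 averaged 4532.2, 179.4 and 834.4 RPM, and ATF5 55.25, 2.358 and 7.37. In these genes sG5C lay below sNT8, so the differences hold more than a rise of sCAG over sNT8. ITGB8 was near-equal in HeyA8 sG5C and sNT8 libraries, at 1.591 and 1.654 RPM. The difference of sG5C from sNT8 was not tested. TOP2A averaged 3.98 RPM in HeyA8 sCAG libraries and 787 in HeyA8 sG5C libraries. MDM2 had 2.33, CDKN1A 1.98 and FAS 2.10, while CASP8 had -0.01 (adjusted p = 0.958, or -0.31 and called when scaled to library totals) and MYC 0.17 (adjusted p = 0.169). Protein-coding genes with at least 6 CTG units had a median log2 fold change of -1.10 for sCAG over sG5C, with LRP5 at -3.66 and RPL14 at -3.67, and DMPK had 0.05 (adjusted p = 0.676, or -0.26 and called when scaled to library totals).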

How the data were processed

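Total RNA was sequenced with a TruSeq Total RNA kit, per the labels' protocols, and the submitters' processing notes name TopHat, Bowtie2, HTSeq, DESeq2 and hg38, without versions. The deposited signal per gene, called the normalized count here, was in every case a whole multiple of 1 step per library (100%, tolerance 1e-06), as counts divided by a size factor are, so whole reads were recovered. The authors' deposited table also gives log2 fold changes and adjusted p-values in columns with DESeq2's names per the file headers. At an adjusted p under 0.05 the authors' deposited table has 6268 genes higher and 6355 lower of 21528 with a value, and it was not used further. The 18 libraries held 31232377 to 41384838 reads. Libraries within HeyA8 sCAG and sNT8 differed by more than sampling noise (chi-square 3.53 to 4.79 per degree of freedom). Each was counted as 1 sample, but this spread does not show that they came from separate cultures.

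Genes were tested on log2(normalized count + 1) with limma 3.58.1 (trended, robust) in R 4.3.3, after edgeR's filter at a count minimum of 10, with Benjamini-Hochberg adjustment over all 21897 genes at 0.05. That scale understates changes of low genes. edgeR 4.0.16 quasi-likelihood and DESeq2 1.42.0 were run on the recovered reads as alternatives, and edgeR was used across tables for PC3 and sG5C. The steps were tested on simulated data in which few genes changed, so that test does not cover a comparison where most genes differ. Errors after ± are SD over libraries, or SE of a log2 fold change. CTG runs came from GENCODE 29, which held 58216 of the 58395 identifiers, 57393 of them with matching coordinates. Promoters came from RefSeq GRCh38.p14 and covered 81.2% of protein-coding genes tested.

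The members and gene lists were chosen with earlier results of these data known. Named genes were the 12 highest and 12 lowest abundant protein-coding genes whose groups did not overlap (at least 100 RPM), the 5 highest and 5 lowest long non-coding genes (at least 5), up to 4 members with the smallest p in each list, the 10 longest CTG runs (at least 5 RPM), the 10 abundant genes nearest 0, the 5 highest and 5 lowest in each comparison with PC3 and sG5C (at least 20 RPM in the higher group and 1 in each), and genes of silencing, cell death and cell cycle control; further members were named for their role. Alternatives were other tools, scalings, pseudocounts and filters, each library left out, and the replicate letter as a block.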

Additional observations from a re-analysis of the deposited data

Results flagged for a closer look

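The effect of sCAG over sNT8 differed between HeyA8 and PC3 for 10051 genes in edgeR's test of that difference over 18 libraries, and these genes are given for that reason. Among genes with at least 20 RPM in the higher group and 1 RPM in each group compared, TOP2A and ASPM had the lowest differences, HeyA8 minus PC3, at -5.66 each on the log2 scale, followed by BATF2 at -5.60, CKAP2L at -5.59 and HJURP at -5.28. In TOP2A, ASPM, CKAP2L and HJURP both lines had a fall, and that of HeyA8 was the larger. The highest differences were those of PAG1 at 5.09, ITGB8 at 4.34, ANGPTL4 at 3.73, FILIP1L at 3.28 and COL1A1 at 3.14. Groups of 3 libraries are too small for the search for single libraries far from the others that is made in larger groups.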

How the results depend on the processing

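The comparison of HeyA8 sCAG with sNT8 gave 6425 genes higher and 6602 lower. edgeR on the recovered reads gave 6302 and 6762, DESeq2 5964 and 6136, and no filter on low counts 6727 and 7134 of 38546 genes. Without any 1 library, 6024 to 6259 genes were higher and 6113 to 6478 lower. Of 99 counts and shares, 93 stayed within 1.5 times their value, or kept their sign in the case of shares, under every alternative run. The other 6 were counts of list members higher. When scaled to library totals, these were 3 epithelial genes (5 with the size factors), 7 sterol synthesis genes (12), 4 proteasome subunits (11), 2 RNA polymerase II subunits (5), 5 nuclear long non-coding RNAs (8) and 0 leukocyte markers (1). With 1 library left out, the proteasome count lay between 7 and 12 and the leukocyte count between 0 and 1. When scaled to library totals, the median of all genes was -0.11 for sCAG against sNT8 (0.01 with the size factors) and -0.28 for sCAG against sG5C (0.00 in the fit reported). YWHAZ and EXT1 were then called at -0.12 each against sNT8, and DMPK was called at -0.26 against sG5C.

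Of 299 values of single genes, 284 kept their direction and their side of the threshold under all alternatives run. The exceptions besides YWHAZ, EXT1 and DMPK were COL5A1, NUMA1, MYC, CASP8, AGO2, AGO4, DICER1, AC005540.1 and AC125494.1, none of which had a log2 fold change as large as 1.

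Libraries with the same replicate letter deviated together only weakly (correlation 0.07 for A, 0.04 for B and 0.06 for C), each sCAG library correlated best with its own letter, and the labels do not say that a letter marks a shared culture or day. With the letter as a replicate block, 6628 genes were higher and 6789 lower, 10339 genes differed between HeyA8 and PC3 and 15720 between sCAG and sG5C. MYC, sCAG against sG5C, was called under the block alone (0.17, adjusted p = 0.0139).

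With 3 libraries a group, the exact test of a share cannot go below p = 0.10, so shares rest on their size and on groups that do not overlap. Genes at a few reads carry wide errors, and the depth of 34761435 to 39189838 reads sets that limit. Near-identical copies and reads on the other strand cannot be resolved from these counts.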

Other observations

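Listed genes that act in the mitochondrial matrix were lower more often than higher with sCAG in HeyA8. Over all protein-coding genes tested, 38.3% were lower and 34% higher. Of 40 proteins of the mitochondrial ribosome, 22 were lower and 6 higher (median log2 fold change -0.20), with MRPS2 at -1.16 as the lowest and MRPS12 at 0.43 as the highest. Of 17 mitochondrial aminoacyl-tRNA synthetases, which charge transfer RNAs in the matrix, 12 were lower and 2 higher (median -0.38). TARS2, the threonine enzyme, had 518, 466 and 444 normalized counts in the sCAG libraries, against 1316, 1248 and 1146 in the sNT8 libraries (log2 fold change -1.38, limma adjusted p = 1.06e-14). CARS2, the cysteine enzyme, had 2001, 2118 and 2154 normalized counts in the sCAG libraries, against 1237, 1228 and 1256 in the sNT8 libraries (log2 fold change 0.75, adjusted p = 3.78e-12). Every sCAG library lay below every sNT8 library for TARS2 and above them for CARS2.

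Of 5 tested metallothionein genes and their regulators, 4 were higher (median 0.78). MT1X, a metallothionein that binds zinc and copper, had 569, 521 and 423 normalized counts in the sCAG libraries, against 165, 134 and 129 in the sNT8 libraries (log2 fold change 1.81, adjusted p = 1.14e-12). SLC30A1, the zinc exporter of the plasma membrane, had 3747, 3722 and 3864 normalized counts in the sCAG libraries, against 1232, 1100.1 and 1374 in the sNT8 libraries (log2 fold change 1.62, adjusted p = 1.50e-16). The groups overlapped in neither gene, and MT1X has close copies with which its reads may be divided. Coat proteins of vesicles between the endoplasmic reticulum and the Golgi gave 6 higher and 8 lower of 21 (median -0.01), with SAR1B, the GTPase of COPII coats, at 1.00 and SEC23A, its activating protein, at -0.85.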
